A study of Homo sapiens with 12 samples.

Results

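The baseline expression profile of control SH-SY5Y cells was read from the 4 arrays of cells given a control siRNA, out of 12 arrays in the series. The other 8 arrays, of cells given either of 2 siRNAs against the histone methyltransferase gene SETD1A, were not compared with them here. All cells, the controls included, were transfected with Lipofectamine RNAiMAX in DMEM/F12 medium with 10% fetal bovine serum, and RNA was taken 96 hours later, so the profile is that of transfected cells and not of untouched cultures. RNA was hybridised to Illumina bead arrays, which report the mean brightness of many beads that carry the same probe. The labels do not state whether the 4 samples came from separate cultures, so the spread between them may be technical.

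SH-SY5Y is a subclone of a human neuroblastoma line and grows as an adherent, dividing culture. Neuroblastoma arises from the sympathoadrenal branch of the neural crest, the embryonic cells that give rise to sympathetic neurons and to the chromaffin cells of the adrenal medulla. A core set of transcription factors, among them PHOX2A, HAND2, GATA3 and ISL1, sets up this lineage. Such cells then make noradrenaline from tyrosine in a chain of enzymes that ends with dopamine beta-hydroxylase, and store it in dense-core granules with chromogranins and neuropeptides.

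Of 20046 genes with a named probe, 8513 (42.5%) were detected, 9974 (49.8%) were absent and 1559 (7.78%) were mixed. A gene was detected where at least 1 of its probes had a detection p under 0.01 on all 4 arrays, absent where no probe reached that threshold on any array, and mixed otherwise. The detection p compares a probe with negative control beads that match no transcript. Absent therefore means not above background for these probes, and it does not show that a transcript is missing. In RNA of a whole culture, a low signal from few cells and a low signal from every cell cannot be told apart.

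Each gene was placed by the intensity percentile of its brightest probe, the share of the 47321 probes on the same array that were dimmer. Other probes of a gene may be far dimmer or absent, which is given below for part of the genes. The percentile places a probe on its own array and is not an amount of RNA, since probes differ in affinity, and it does not rank genes by transcript number. The threshold for detection lay between percentiles 66.5 and 70.7 on the 4 arrays, at intensities between 87.9 and 104.2. Detected genes had a median percentile of 87.3, against 64.9 for all genes. Their mean intensity had a median of 324.0 in the arrays' arbitrary units, with 5% below 116 and 5% above 2589.

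Control replicate 4 stood apart from the other 3 arrays. It had the highest median intensity, 70.2 against 63.1 to 68.6, and the lowest share of detected probes, 29.3% against 31.4% to 33.5%. After background correction and quantile normalization, 346 of 13052 detected probes on it lay over 1 log2 unit from the median of the other 3 arrays, whereas the other arrays had 0, 0 and 1 such probes. Without replicate 4, 8999 genes were detected, 486 more, against 8526, 8577 and 8610 without replicates 1, 2 and 3. By the calling rule, leaving out an array can only add detected genes, and only from the mixed class. Unnormalized intensities also carry the overall brightness of an array, and replicate 2 was the dimmest, so small differences between arrays in the values below may follow it, which was not tested. Each spread below is the SD of normalized log2 intensity over the 4 arrays, whose median over all detected genes was 0.16.

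All 5 marker genes of the label were detected on all 4 arrays. DBH, the enzyme that turns dopamine into noradrenaline, read 9655, 8585, 9066 and 10507 on replicates 1 to 4, at a median percentile of 99.6. Its spread was 0.03 log2 units, and no array stood apart from the others. HAND2, a basic helix-loop-helix regulator needed for sympathetic neuron development, read 2932, 2487, 2610 and 2549, at percentile 98.3. Replicate 1 was the brightest, and the range on the array was 98.0 to 98.4 percentiles. HAND2 had another probe that was absent, with intensities between 55 and 63.9. CHGB, a chromogranin of dense-core granules, read 2388, 2308, 2281 and 2379 at percentile 98.0, with almost level values on the 4 arrays.

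GATA3, a zinc-finger regulator of sympathoadrenal cells, read 944.6, 808.5, 736.1 and 839.3 at percentile 94.6, with replicate 3 the dimmest. GAP43, a growth cone protein of extending axons, read 250.2, 214.4, 235.3 and 308.0 at percentile 83.9. Replicate 4 was the highest for GAP43 on the normalized scale, 8.01 against 7.51 to 7.59. Of the 5 markers, GAP43 thus lay closest to the detection limit, and its median percentile lay below the median of 87.3 for detected genes.

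The upstream sequences of DBH and HAND2 are shown because these 2 genes are defining markers whose lineage regulators are also on the array. PHOX2 homeodomain proteins bind sites with an ATTA core, and HAND2 binds E-boxes. Each sequence holds the 250 bases before the RefSeq gene start, printed 5′ to 3′ on the gene's strand, for DBH at chr9:133636113-133636362 (plus strand) and for HAND2 at chr4:173530230-173530479 (minus strand) of GRCh38.p14. Capitals mark TAAT or ATTA, which are the same core read on either strand, and the E-box CANNTG, where N is any base.
DBH: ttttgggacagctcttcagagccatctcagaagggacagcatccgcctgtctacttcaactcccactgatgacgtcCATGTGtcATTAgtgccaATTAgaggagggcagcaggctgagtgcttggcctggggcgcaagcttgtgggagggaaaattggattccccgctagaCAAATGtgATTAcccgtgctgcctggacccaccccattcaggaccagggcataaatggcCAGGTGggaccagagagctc
HAND2: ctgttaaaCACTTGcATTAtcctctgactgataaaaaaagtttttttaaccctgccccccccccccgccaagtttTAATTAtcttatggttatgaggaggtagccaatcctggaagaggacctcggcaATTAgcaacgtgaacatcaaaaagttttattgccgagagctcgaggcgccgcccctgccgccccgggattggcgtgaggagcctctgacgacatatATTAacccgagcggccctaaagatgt
The DBH sequence held 3 TAAT cores and 3 E-boxes, with a GC content of 55.6%. The HAND2 sequence held 5 cores and 1 E-box, with a GC content of 49.6% and 13 CpG dinucleotides against 5 for DBH. No core overlapped an E-box in either sequence. A TAAT core was present in 47.4% and an E-box in 61.8% of all 35116 RefSeq promoter windows of this length, so each motif is common. The matches describe the letters only, and binding was not measured.

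Regulators of the sympathoadrenal lineage were widely detected, 26 of the 34 measured genes (76.5%) against 42.5% of all genes. Of the others, 6 were absent and 2 mixed. ISL1, a LIM-homeodomain factor of sympathetic and motor neurons, read 5592, 4802, 5025 and 5369 at percentile 99.1, with replicate 2 the dimmest. GATA2, a zinc-finger partner of the lineage, read 1586, 1456, 1421 and 1674 at percentile 97.0. HAND1, the paralog of HAND2, read 1680, 1353, 1585 and 1756, and replicate 2 was the dimmest array on both scales. These probes sat in the top 5% of their arrays.

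PHOX2A, a homeodomain factor that switches on noradrenergic genes, read 490.9, 444.1, 428.8 and 656.0 at percentile 90.7. Replicate 4 was the brightest, and the spread of PHOX2A was 0.29 log2 units. MEIS2, a TALE homeodomain cofactor, read 2781, 2433, 2589 and 2162 at percentile 98.3, and replicate 4 was the dimmest. DLK1, a transmembrane protein related to Notch ligands and found in chromaffin cells, read 2030, 1949, 1927 and 2363 at percentile 97.7. The 4 arrays placed DLK1 between percentiles 97.7 and 97.9.

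Both MYC family genes with a named probe in this list were detected. MYC read 1017, 929.2, 956.1 and 1155 at percentile 95.4 on its brighter probe, and both its probes were detected. MYCN, the family member amplified in many aggressive neuroblastomas, read 186.1, 145.4, 171.8 and 180.2 at percentiles between 78.5 and 80.7 on 1 probe. The other MYCN probe was absent, with intensities between 61.8 and 84.4. SH-SY5Y is known as a line without MYCN amplification. The probes of the 2 genes differ in affinity, so their intensities do not give the ratio of the transcripts.

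Neural crest and mesenchymal regulators were detected at a share near the background, 10 of 27 measured genes (37% against 42.5% of all genes), with 14 absent and 3 mixed. TWIST1, a basic helix-loop-helix factor of migrating crest and mesenchyme, read 3770, 3111, 3527 and 4094 at percentile 98.7. The inhibitors of DNA binding ID3 and ID1 lay at percentiles from 96.3 to 96.8 and from 94.2 to 95.5, and NOTCH3, a Notch receptor, at a median of 90.1. SNAI2, a zinc-finger factor of crest migration, lay at percentile 83.1, and YAP1, the coactivator of the Hippo pathway, at 77.6. SOX9, a crest and cartilage factor, read 116.2, 110.8, 110.4 and 144.5 at percentile 73.6, close to the detection limit. TWIST1 therefore stood far above the limit while SOX9 stood just over it.

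SOX10, a factor of early crest and glia, was absent, with intensities of 49.6, 56.8, 41.9 and 49.3. FOXD3, another early crest factor, was absent at 52.5, 41.6, 58.6 and 48.8. PRRX1 and FOSL1, regulators linked to the mesenchymal state of neuroblastoma cells, were also absent, at median percentiles of 42.7 and 66.0. FOSL1 read 78.8 to 94.2, just under the limit on each array, whereas SOX10 and FOXD3 reached at most percentiles 36.4 and 30.5.

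**Figure D1:**
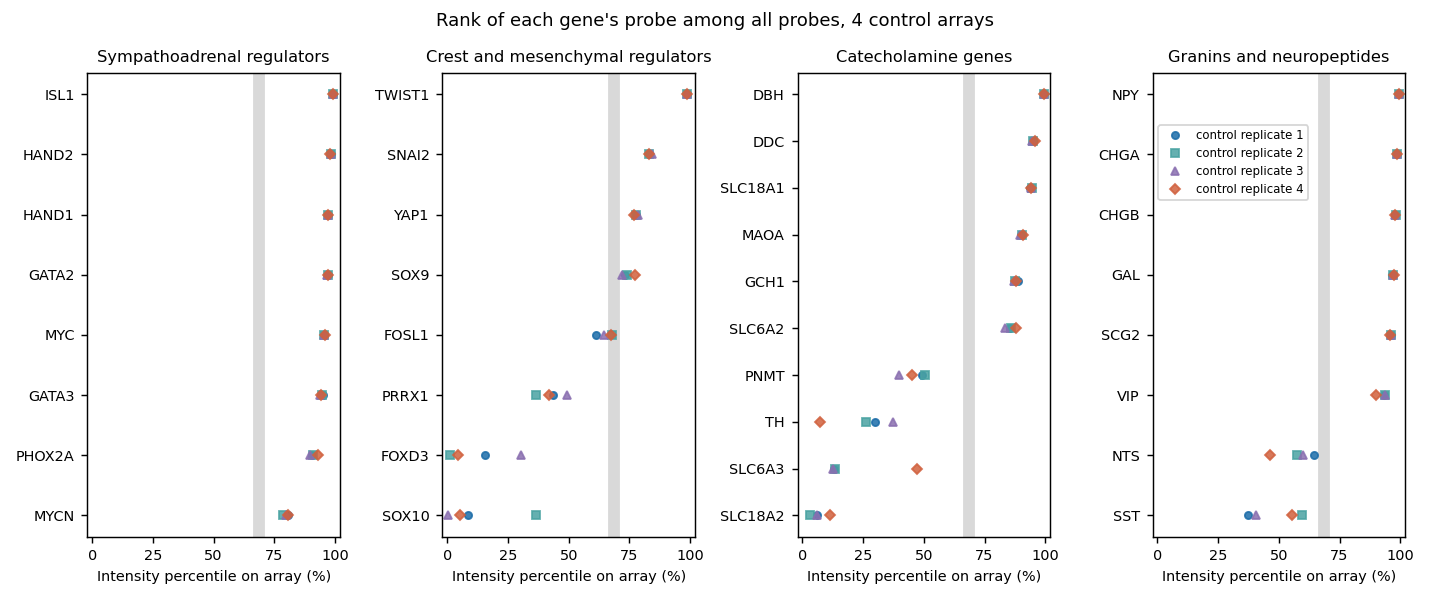
Intensity percentile of each gene's brightest probe among all probes of its array (x axis, %) for genes of 4 lists, with 1 point per control array and the grey band marking the detection limit of the 4 arrays, 66.5 to 70.7. DBH, ISL1, TWIST1 and NPY lie near the right edge on all 4 arrays, while TH, SLC18A2, SOX10 and FOXD3 lie left of the band.

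Regulators of other neuronal lineages were mostly absent, with 4 of 33 measured genes detected (12.1% against 42.5% of all genes) and 29 absent. The forebrain and midbrain factors PAX6, TBR1, EN1 and PITX3, and the neural stem cell factor SOX2, were absent on every probe, at median percentiles between 28.0 for TBR1 and 51.5 for SOX2. The 4 detected genes came from different lineages. NEUROG2, a proneural factor of sensory and cortical precursors, read 1416, 1463, 1377 and 1720 at percentile 96.9, with replicate 4 the brightest. FEV, the serotonergic regulator, and POU4F2, a retinal ganglion cell factor, both lay at percentile 87.6, and DLX5, a homeodomain factor of forebrain interneurons and craniofacial crest, at 78.5.

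HOX genes, which mark position along the body axis, were detected in 10 of 29 measured cases (34.5%, below the 42.5% of all genes), and the clusters differed in count. The HOXD cluster had 6 of 9 measured genes detected and HOXC had 4 of 9, while HOXB had 0 of 10, with 4 of these mixed. HOXA had 1 measured gene, which was absent. HOXC6 read 1250, 1139, 1345 and 1438 at percentile 96.4 on 1 of its 4 probes, and its other 3 probes were absent. HOXC4 lay at percentile 92.4, HOXD11 at 84.8 and HOXD8 at 84.3. The detected genes of HOXC were HOXC4, HOXC6, HOXC8 and HOXC9, which were listed here after their values were seen, while HOXC5 and the more posterior members HOXC10, HOXC11, HOXC12 and HOXC13 were absent.

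Of 22 measured genes linked to pluripotency or to neuroblastoma, 13 were detected (59.1% against 42.5% of all genes). ALK, a receptor kinase mutated in part of neuroblastomas, read 349.8, 325.2, 337.1 and 529.0 at percentile 87.8, and replicate 4 was the highest. PTPN11, a phosphatase of growth factor signalling, read 1212, 1038, 1074 and 701.9 at percentile 95.9, and replicate 4 was the lowest. LIN28B, an inhibitor of let-7 microRNA maturation, read 326.2, 280.3, 353.1 and 179.8 at percentile 86.7, again lowest on replicate 4, with a spread of 0.51 log2 units. These 3 genes show that replicate 4 departed in both directions.

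PRAME, a tumour antigen, and GPC2, a cell surface glypican of neuroblastoma, lay at percentiles 96.8 and 95.5 with spreads of 0.06 and 0.13. The chromatin remodelling subunit ARID1A and the kinesin KIF1B lay at 97.0 and 96.4. B4GALNT1, an enzyme of GD2 ganglioside synthesis, lay at 74.2. CHD5, a chromatin remodeller in the chromosome arm often lost in this tumour, was mixed at 66.3, and TERT, the telomerase catalytic subunit, was absent on both probes. CHD5 thus lay at the limit and TERT below it.

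The catecholamine pathway was detected apart from a few steps, with 11 of 16 measured genes detected (68.8% against 42.5% of all genes) and 5 absent. TH, tyrosine hydroxylase and the rate-limiting first enzyme, read 57.7, 53.2, 61.5 and 50.5, and both its probes were absent. Its median percentile of 28.0 lay far below the limit on all 4 arrays. DDC, the decarboxylase that makes dopamine, read 917.5, 864.3, 854.3 and 1119 at percentiles between 94.7 and 95.7, with replicate 4 the brightest. PNMT, which turns noradrenaline into adrenaline, was absent at 67.1, 63.4, 62.6 and 67.0. The chain thus had detected probes for DDC and DBH, between absent probes for TH and PNMT.

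Enzymes that make tetrahydrobiopterin, the cofactor of TH, were detected. GCH1, its first and controlling enzyme, had all 3 probes detected, and its brightest read 396.5, 312.9, 327.3 and 343.8 at percentile 87.8. PTS and QDPR, which make and recycle the cofactor, lay at percentiles 96.7 and 95.4. CYB561, which carries electrons into granules for DBH, read 3281, 2144, 2465 and 2963 at percentile 98.2, and its spread of 0.20 was wider than that of DBH.

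The vesicular carriers of monoamines split by isoform. SLC18A1, the chromaffin cell isoform, read 775.3, 777.1, 786.3 and 823.7 at percentile 94.3, and both its probes were detected. SLC18A2, the neuronal isoform, read 48.3, 43.8, 48.7 and 52.6 and was absent, among the dimmest probes of every array. SLC6A2, the noradrenaline transporter of the cell surface, read 281.8, 265.0, 232.7 and 345.1 at percentile 85.7. SLC6A3, the dopamine transporter, was absent, with replicate 4 at 68.2 and the others between 48.9 and 51.8. MAOA, which degrades amines in mitochondria, lay at percentile 90.2.

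Genes of other small transmitters were mostly absent, with 4 of 22 measured genes detected (18.2% against 42.5% of all genes). CHAT, which makes acetylcholine, was absent on all 4 of its probes, and its brightest read 62.3, 58.1, 53.9 and 64.0. ACHE, which breaks acetylcholine down, was absent on 3 probes. SLC18A3, the vesicular acetylcholine carrier whose gene lies within the CHAT gene, was detected at 98.5, 101.3, 105.5 and 122.4. At a median percentile of 71.7, SLC18A3 lay just over the limit.

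For GABA, the synthetic enzyme GAD1 was detected at percentile 78.6, with replicate 4 the lowest at 114.1 against 157.9 to 165.8, and 1 of its 3 probes was absent. The degrading enzyme ABAT lay at percentile 78.5. GAD2 and the vesicular GABA carrier SLC32A1 were absent at percentiles 14.5 and 33.0. The vesicular glutamate carriers SLC17A6 and SLC17A7 were absent, as were the serotonin genes TPH2 and SLC6A4 and the histamine enzyme HDC. GLUL, glutamine synthetase, was detected on 1 of 4 probes at percentile 71.1, and its other 3 probes were absent.

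Granins, neuropeptides and their processing enzymes were detected in 15 of 27 measured cases (55.6% against 42.5% of all genes). Of those 15, 12 lay at percentile 90 or above (80% against 39.5% of all detected genes). VGF, a secreted precursor of several peptides, read 12514, 10893, 9494 and 11917 at percentile 99.7, with replicate 3 the dimmest. NPY, a peptide released by sympathetic neurons with noradrenaline, read 6967, 6023, 6334 and 7810 at percentile 99.3. CHGA, the granin used clinically as a neuroendocrine marker, read 4022, 3658, 3715 and 4337 at percentile 98.8. The spreads of CHGA, NPY and VGF were 0.03, 0.07 and 0.13.

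SCG2, a further granin, lay at percentile 96.1, and GAL, the peptide galanin, at 97.0. VIP, a vasoactive peptide of some sympathetic and enteric neurons, read 719.5, 642.0, 706.8 and 438.9 at percentile 93.5. Replicate 4 was clearly the lowest for VIP. NTS, neurotensin, was absent on both probes, and its brighter read 84.9, 69.1, 78.2 and 67.9. SST, somatostatin, was absent at 60.8, 71.1, 63.1 and 75.0.

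The release machinery was detected in 18 of 32 measured genes (56.2% against 42.5% of all genes), with 11 absent and 3 mixed. SYT4, a synaptotagmin of dense-core granules, read 8232, 6862, 7060 and 5045 at percentile 99.4, with replicate 4 the lowest. SYT1, the calcium sensor of fast release, read 205.1, 184.5, 216.2 and 121.0 at percentile 81.8, and replicate 4 was again the lowest. SYT1 had another probe that was absent. SNAP25, a membrane SNARE protein, and NSF, the ATPase that recycles SNARE complexes, lay at percentiles 96.6 and 96.4, and VAMP2, the vesicle SNARE, at 80.1. SYT11, a synaptotagmin that does not sense calcium, lay at 98.8 with a spread of 0.06.

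Receptors for growth factors were detected in 11 of 29 measured cases (37.9%, near the 42.5% of all genes). RET, the signalling receptor for the GDNF family, read 1358, 1172, 1235 and 1454 at percentile 96.4, and all 3 of its probes were detected. GFRA2, a coreceptor that binds neurturin for RET, lay at percentile 80.7. The neurotrophin receptors NTRK2, NTRK3 and NGFR were absent on every probe, with the brightest probe of each reading between 53.4 and 71.1. RET and a coreceptor were thus detected, and these 3 neurotrophin receptors were not.

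PDGFRA and PDGFRB, receptors of platelet-derived growth factor, lay at percentiles 96.5 and 93.9. CNTFR, the binding subunit for ciliary neurotrophic factor, lay at 96.7, with its other 2 probes absent. EGFR, the epidermal growth factor receptor, read 188.9, 163.1, 188.8 and 192.5 at percentile 80.8 on 1 of 4 probes. IGF1R, the receptor of insulin-like growth factor, was absent on its probe at 80.9, 74.3, 67.3 and 84.9.

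G protein-coupled receptors were detected in 14 of 71 measured cases (19.7%), below the background share, with 50 absent and 7 mixed. CXCR4, the chemokine receptor that guides migrating crest cells, read 717.6, 583.6, 609.9 and 691.4 at percentile 93.1. CHRM3, a muscarinic acetylcholine receptor linked to calcium release, read 636.8, 515.6, 542.9 and 345.1 at percentile 91.9, with replicate 4 the lowest. It was the only detected gene of 5 muscarinic receptors measured, and CHRM1 was absent at percentile 13.4.

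Of 10 serotonin receptors of this class 1 was detected, HTR2B at percentile 86.3, where replicate 4 read 186.6 against 274.7 to 337.8. Of 7 adrenergic receptors 1 was detected, ADRA2A, the inhibitory receptor on noradrenergic terminals, at 91.5, 138.5, 97.9 and 107.1. ADRA2A was uneven, with replicate 2 the highest and a spread of 0.50. Among 4 opioid receptors, OPRL1, the nociceptin receptor, was detected at percentile 87.0 on 1 of 4 probes, OPRM1 was mixed and OPRD1 was absent. Of 5 dopamine receptors 1 was detected, DRD4, named here after its values were seen, at percentile 73.5, and DRD2 was absent. NPY2R, a receptor for NPY, was absent.

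Ligand-gated channels were detected in 7 of 52 measured cases (13.5%), and 4 of the 7 were nicotinic acetylcholine receptor subunits, out of 11 measured, a share below the 42.5% of all genes. CHRNA3, the main alpha subunit of ganglionic receptors, read 2453, 2244, 2040 and 2706 at percentile 98.1, and both its probes were detected. CHRNA5, an accessory subunit, read 797.9, 974.2, 876.1 and 870.3 at percentile 94.7, with replicate 2 the highest. CHRNB4, the ganglionic beta subunit, read 134.1, 116.5, 153.3 and 145.0 at percentile 76.5. These 3 genes lie side by side in the genome and form the ganglionic type of receptor. The other detected subunit gene, CHRNB1, is not among them and lay at percentile 80.6. It was named here after its values were seen.

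No GABA-A receptor subunit was detected among 12 measured, and all 12 were absent. Of 16 ionotropic glutamate receptor subunits 1 was detected, GRIN1, the obligate NMDA receptor subunit, at percentile 86.5 on 1 of 3 probes. GRIA2, an AMPA receptor subunit, was mixed at percentile 67.0. ASIC1, a channel opened by acid, lay at percentile 90.7, and its other probe was absent at 44.4 to 48.5. At a detection p under 0.05 the whole list had 12 detected genes in place of 7.

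Voltage-gated sodium channel genes were detected in 2 of 13 measured cases (15.4% against 42.5% of all genes). SCN9A, a pore-forming subunit of sensory and sympathetic neurons, read 209.8, 176.9, 217.7 and 138.2 at percentile 81.6, with replicate 4 the lowest. SCN3B, an auxiliary subunit, lay at percentile 79.2 with a spread of 0.07. SCN2A and SCN3A, pore-forming subunits of central neurons, were mixed at percentiles 66.8 and 68.9, which lay within the range of the detection limit.

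Voltage-gated calcium channel genes were detected in 3 of 17 measured cases (17.6% against 42.5% of all genes), with 1 of 10 pore-forming subunits among them. CACNA2D2, an auxiliary subunit that aids surface delivery, read 1345, 1384, 1431 and 1706 at percentile 96.9 on its brighter probe. Its other probe was detected at 113.5 to 141.3, at percentile 75.9. CACNB3, a cytoplasmic beta subunit, lay at percentile 93.5. CACNA1G, a T-type pore, read 109.0, 105.2, 106.0 and 125.5 at percentile 72.5, close to the limit. The pores CACNA1B and CACNA1C of the N and L types were absent. By their brightest probes, the detected auxiliary subunits thus lay far above the limit and the detected pore close to it. The dimmer CACNA2D2 probe lay much nearer the limit, so this contrast depends on the probe read.

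Potassium channels were detected in 12 of 50 measured cases (24.0% against 42.5% of all genes). KCNH6, a channel of the ERG family, read 5323, 6043, 5983 and 5977 at percentile 99.2 on 1 probe, with replicate 1 the dimmest. Its other 2 probes were absent, with intensities between 53.7 and 64.6. KCNH2, the founding ERG channel, lay at percentile 90.6 with 2 of 4 probes detected. The KCNH family had 4 of 8 measured genes detected, near the 42.5% of all genes. Of the other families counted, KCNJ had 1 of 9, KCNA 0 of 5 and KCNQ 0 of 3.

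KCNT1, a sodium-activated channel, lay at percentile 93.6, KCNK1, a leak channel, at 92.7, and KCNJ8, an inward rectifier opened when ATP is low, at 90.8. KCNQ3, a subunit of the M-current, was mixed, at 141.7, 122.8 and 139.5 on replicates 1 to 3 and 96.1 on replicate 4. KCNQ3 was thus under the limit on replicate 4 alone.

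Of 32 measured HCN, TRP and store-operated channel genes 6 were detected (18.8% against 42.5% of all genes), among them 2 of 18 TRP channels. ITPR1 and ITPR3, the inositol trisphosphate receptors that release calcium from the reticulum, lay at percentiles 85.7 and 83.7. HCN3, a pacemaker channel, and TRPC1, a cation channel, lay at 81.3 and 78.3. TRPM7, a channel with a kinase domain, was absent at 59.6, 60.3, 68.0 and 68.6.

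**Figure D2:**
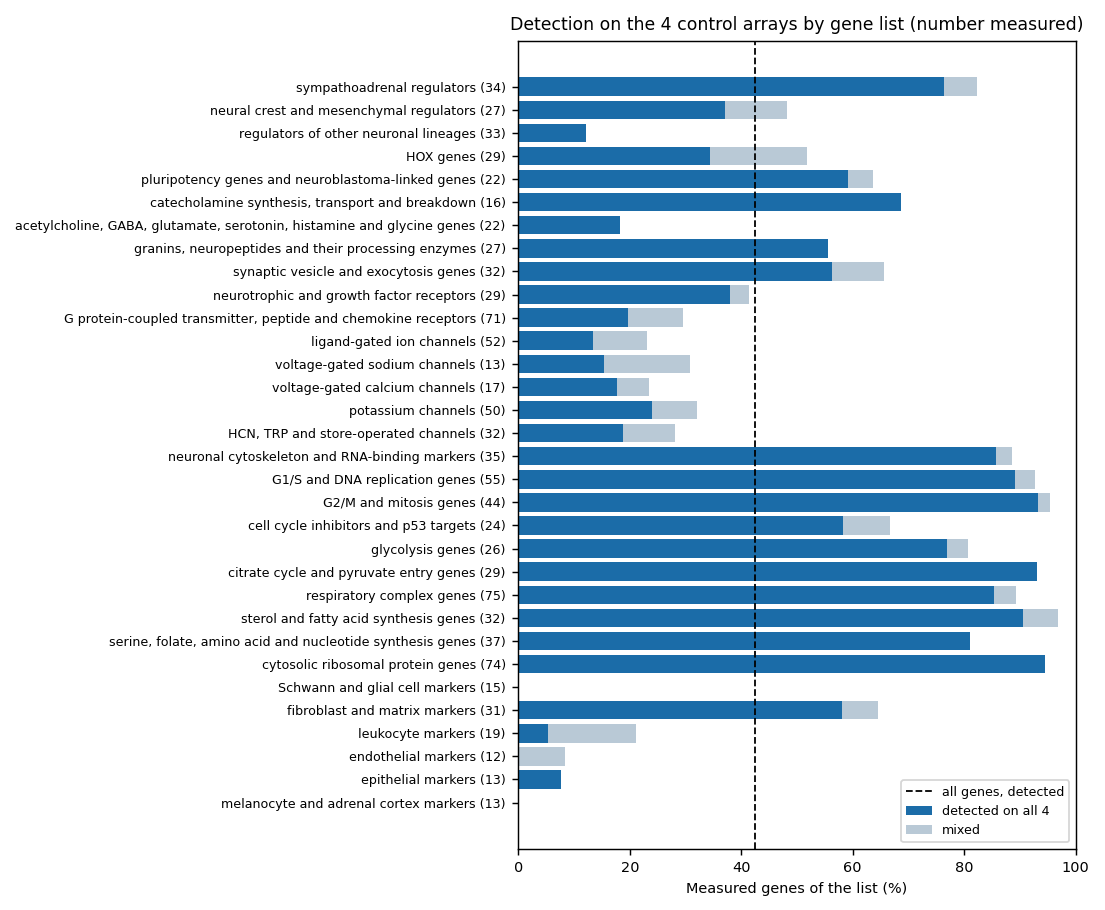
Share of the measured genes of each list (x axis, %) that were detected on all 4 control arrays (dark) or mixed (light), with 1 bar per list and a dashed line at 42.5%, the share of all genes detected. Ribosomal protein, mitosis and citrate cycle genes were detected in 94.6%, 93.2% and 93.1% of cases, while the dark bars of receptors and channels end left of the line and the glial, endothelial and melanocyte lists have no dark bar.

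Neuronal cytoskeleton and RNA-binding markers were detected in 30 of 35 measured cases (85.7% against 42.5% of all genes). Of these 30, 19 lay at percentile 90 or above (63.3% against 39.5% of all detected genes). STMN2, a tubulin-binding protein of growing axons, read 11948, 10026, 9986 and 9712 at percentile 99.6. TUBB3, the neuronal beta tubulin, read 3493, 3000, 3106 and 3952 at percentile 98.6. TUBA1A and TUBB2B, tubulins of developing neurons, lay at percentiles 99.8 and 99.5, and DPYSL3, a growth cone protein, at 99.3. The tubulin genes are close paralogs, so their probes may share transcripts.

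ELAVL4, a neuronal RNA-binding protein, read 826.8, 625.1, 760.0 and 446.1 at percentile 93.7, with replicate 4 the lowest. DCX, a microtubule protein of migrating neurons, lay at percentile 86.3 and the light neurofilament NEFL at 87.7. MAP2, a dendritic microtubule protein, lay at 81.9. PRPH, peripherin of peripheral neurons, read 101.5, 90.3, 105.3 and 106.1 at percentile 70.6, on the edge of detection. RBFOX3, which encodes the mature neuron antigen NeuN, was absent at 54.1, 57.9, 61.2 and 64.4.

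Genes of DNA replication and of mitosis were almost all detected. For the G1/S list 49 of 55 measured genes were detected (89.1%), and for the G2/M list 41 of 44 (93.2%), against 42.5% of all genes. CCND1, the G1 cyclin, read 5941, 4797, 4936 and 6001 at percentile 99.1. Its partner kinase CDK4 lay at percentile 97.7, and PCNA, the sliding clamp of DNA polymerases, at 97.5. All 7 measured genes of the MCM helicase family were detected, MCM7 at percentile 98.9 and MCM2 at 90.3. The maintenance methyltransferase DNMT1 lay at 98.8.

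Part of the G2/M list was lower on replicate 4 than on the other arrays. TOP2A, the topoisomerase of chromosome condensation, read 1633, 1344 and 1634 on replicates 1 to 3 and 576.6 on replicate 4. MKI67, the Ki-67 proliferation antigen, read 107.3, 104.1 and 141.3 on replicates 1 to 3 and 83.7 on replicate 4, where it lay under the limit, so it was mixed. Of the 41 detected G2/M genes, 15 (36.6%) lay over 0.5 log2 units lower on replicate 4 than the median of the other 3, against 11.6% of all detected genes. None of these 41 was over 0.5 higher.

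Other mitotic genes did not move in this way. CCNB1, the mitotic cyclin, read 583.6, 507.8, 534.2 and 648.4, and replicate 4 was the brightest. UBE2C, CKS1B, PTTG1 and BUB3, which act in cyclin destruction, kinase binding, chromatid cohesion and the spindle checkpoint, had spreads between 0.07 and 0.12 at percentiles from 97.9 to 98.6. PLK1, a mitotic kinase, lay at percentile 73.5, near the limit on all 4 arrays. In the G1/S list 3 of 49 detected genes lay over 0.5 lower on replicate 4 and 3 lay over 0.5 higher, and for the 70 detected ribosomal protein genes both counts were 0.

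Of 24 measured cell cycle inhibitors and p53 target genes, 14 were detected (58.3% against 42.5% of all genes). CDKN1A, the p53-induced inhibitor p21, read 3758, 2856, 2876 and 3438 at percentile 98.5 on 1 probe, and its other probe was absent. ZMAT3, a p53 target that binds RNA, lay at percentile 98.6 with all 3 probes detected. CDKN1B and CDKN1C lay at percentiles 93.0 and 79.3, and BTG1, an antiproliferative protein, at 96.6. CDKN2A, the gene of p16 and ARF, was absent on all 3 probes, and its brightest read 67.0, 62.9, 72.0 and 83.8.

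**Figure D3:**
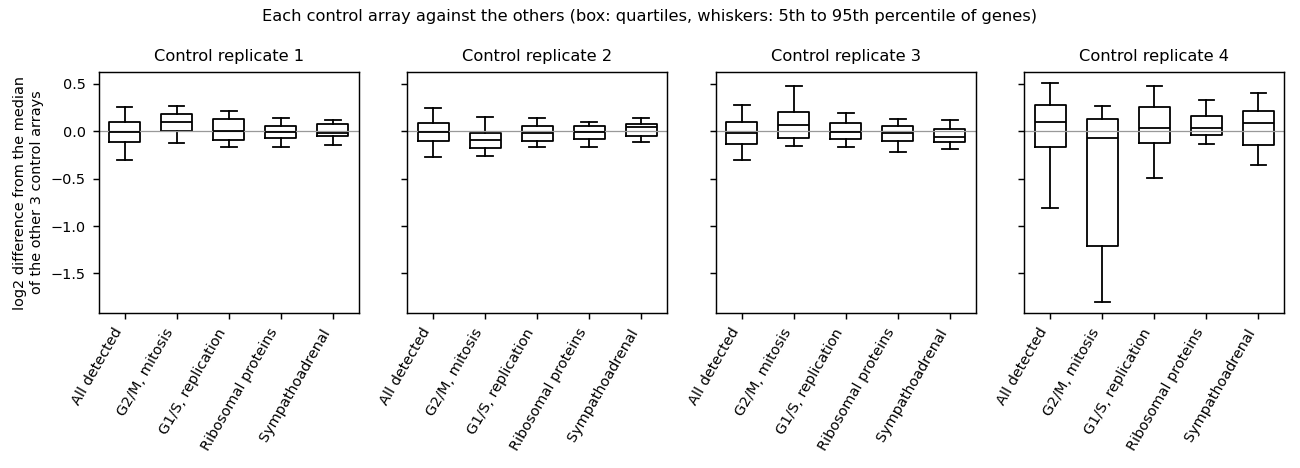
Difference in normalized log2 intensity of each control array from the median of the other 3 (y axis, log2 units) for all detected genes and 4 lists, with boxes at the quartiles of genes and whiskers at the 5th and 95th percentiles. The box of the G2/M list reaches far below 0 on replicate 4 and on no other array, while the ribosomal protein boxes stay near 0 on all 4 arrays.

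Metabolic genes, ribosomal proteins left out, were detected in 170 of 199 measured cases (85.4% against 42.5% of all genes). Of these 170, 127 lay at percentile 90 or above (74.7% against 39.5% of all detected genes). In glycolysis 20 of 26 genes were detected. LDHA, which makes lactate, read 8584, 7453, 8396 and 8986 at percentile 99.5, and ENO1, an enolase, read 8081, 6098, 7086 and 8945. GAPDH lay at percentile 99.4 and TPI1 at 98.9, while SLC2A1, the glucose transporter, lay at 92.9 and HK2, a hexokinase, at 87.6. Replicate 2 was the dimmest array for these genes other than SLC2A1, where replicate 3 was.

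In the citrate cycle 27 of 29 genes were detected (93.1%). MDH2, the mitochondrial malate dehydrogenase, lay at percentile 99.3 with a spread of 0.04, and CS, citrate synthase, at 98.3. MDH1, the cytosolic malate dehydrogenase, lay at 98.1 and MPC1, a subunit of the pyruvate carrier, at 97.8. For the respiratory complexes 64 of 75 genes were detected, including all 15 ATP synthase and all 8 complex III genes, 29 of 36 complex I genes and 11 of 15 complex IV genes. ATP5F1B, the catalytic subunit of ATP synthase, read 10152, 8983, 9382 and 11835 at percentile 99.6.

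Complex IV showed a split by tissue isoform. COX4I1, the widely used form of subunit 4, read 5749, 5335, 5849 and 6991 at percentile 99.2. Its paralog COX4I2, known from lung, was absent at 57.0, 53.8, 62.3 and 60.3, and the heart and muscle isoforms COX6A2 and COX7A1 were absent at intensities of 49.6 to 56.1 and 50.9 to 59.8.

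Sterol and fatty acid synthesis genes were detected in 29 of 32 cases (90.6%). SCD, which desaturates fatty acids, read 3175, 3097, 2903 and 3346 at percentile 98.5, and FASN, fatty acid synthase, lay at 98.2. ACLY, which supplies cytosolic acetyl groups, lay at 97.7. In the list of serine, folate, amino acid and nucleotide synthesis 30 of 37 genes were detected (81.1%). PHGDH, the first enzyme of serine synthesis, read 3184, 2596, 3014 and 3717 at percentile 98.5, and ODC1, the polyamine enzyme and a known MYC target, lay at 97.2.

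Ribosomal protein genes were detected in 70 of 74 measured cases (94.6%), with all 26 small subunit genes among them. Their median percentile was 99.5, and their 121 probes held 5.68% of the summed intensity of the arrays. RPS25, RPS27, RPLP2 and RPL41 were the highest of the list, with intensities between 16317 and 19038. The paralogs RPL3L, known from muscle, and RPL10L, known from testis, were absent at percentiles 39.1 and 61.8. RPL10 was also absent on both probes, a gene picked here after its values were seen, although its product is a core protein of the large subunit. Many ribosomal protein genes have processed pseudogenes, so a probe may read several copies.

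Markers of other cell types were mostly absent. Of all genes, 42.5% were detected and 49.8% were absent. No gene was detected among 15 Schwann and glial markers, 12 endothelial markers and 13 melanocyte and adrenal cortex markers. Their summed intensities ranged over the 4 arrays from 831.0 to 975.7, from 667.6 to 766.6 and from 724.4 to 775.2. The defining markers S100B, GFAP, SOX10, PECAM1, CDH5, VWF, MLANA, TYR, PMEL, NR5A1 and CYP11A1 were all absent. Of 19 leukocyte markers 1 was detected (5.26%), CD68, a lysosomal protein of macrophages, at percentile 91.5, with a summed intensity of 1646 to 1874. The pan-leukocyte gene PTPRC was absent on all 4 of its probes, CD3E and LYZ were absent and CD14 was mixed. Of 13 epithelial markers 1 was detected (7.69%), EPCAM, at percentile 72.3, and CDH1 was absent.

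Fibroblast and matrix markers differed from these lists, with 18 of 31 measured genes detected (58.1% against 42.5% of all genes). Their summed intensity lay between 16657 and 20831. VIM, the intermediate filament vimentin, and LGALS1, a galectin, lay at percentiles 99.2 and 99.1. They read 5041 to 6173 and 4474 to 6446, a large part of that sum. The lists also differ in length, so their sums do not compare signal per gene. The proteoglycan genes DCN and LUM were detected, DCN at 1088, 920.0, 959.2 and 933.7 and LUM at 845.4, 694.3, 820.9 and 444.3. Replicate 4 was the lowest for LUM. COL3A1, a fibrillar collagen, lay at percentile 89.8 and COL1A1 at 72.1, next to the limit.

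COL1A2, the partner chain of COL1A1, was absent on both probes, and FN1, fibronectin, and CD44, a surface receptor for hyaluronan, were absent on all 3 of their probes. Neuroblastoma cells in culture are known to make vimentin and some matrix genes themselves, and whether any signal came from other cells was not tested.

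The 15 brightest named genes outside the ribosomal protein list included the translation genes EEF1A1 and TPT1 but also genes with very dim further probes. EEF1A1, the elongation factor, read 19367, 20682, 20504 and 21497, and TPT1, the translationally controlled tumour protein, read 17219, 18303, 16028 and 18453. LAIR1, an inhibitory receptor of immune cells, read 18403, 16129, 17310 and 17618 on 1 probe and 63.1 to 67.8 on the other, which was absent. ITIH5, a hyaluronan-associated protein, read between 13745 and 14660 on 1 probe, and its other 4 probes were absent at 48.6 to 66.2. F2R, the thrombin receptor, read 15926, 16170, 17679 and 15048, and its other probe was detected at 209.1 to 267.1.

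Of the 15 genes, 13 had another probe, and in 10 the next-brightest probe was over 10 times dimmer. In 4 of them, LAIR1, SLC7A5P2, RRP7BP and ITIH5, every other probe was absent. The next-brightest probe was over 10 times dimmer in 307 of 3497 detected genes with more than 1 probe (8.78%). Among the 100 brightest genes, ribosomal protein genes included, it was so in 33 of the 66 with more than 1 probe. Of 6691 genes with more than 1 probe, 1826 (27.3%) had a detected and an absent probe. Detected genes above whose absent probes were not given there include MEIS2, HOXC4, ARID1A, KIF1B, CYB561, ABAT, NSF, CXCR4 and CHRM3. Further ones are SCN3B, CACNA1G, DCX, MAP2, PCNA, BUB3, DCN, CD68 and EPCAM. The pseudogenes RPL13AP5, RPSAP9, SLC7A5P2 and RRP7BP are close copies of other genes, and the genomic matches of the probes were not analysed here, so their signals cannot be assigned to these loci.

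**Figure D4:**
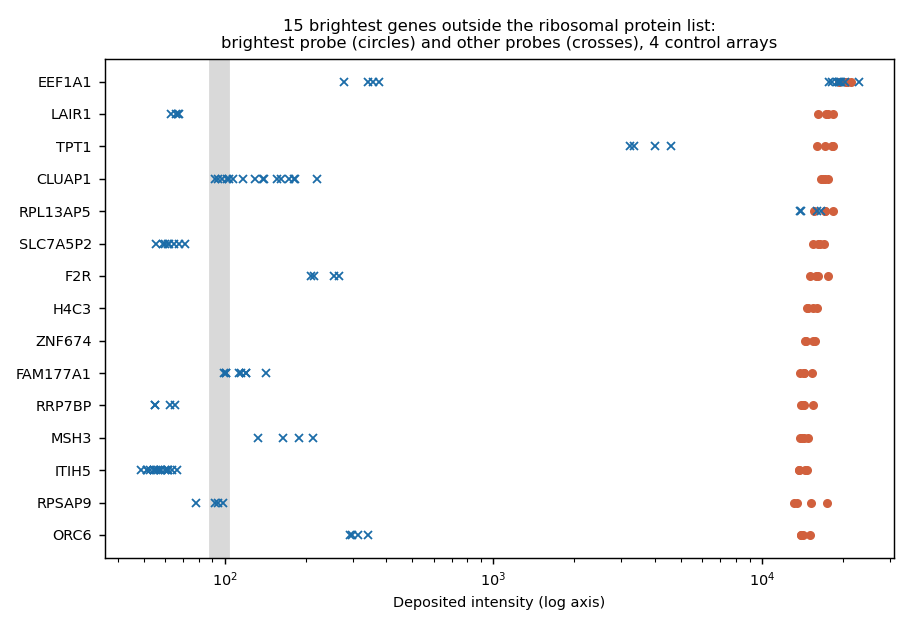
Deposited intensity (x axis, log scale) of the brightest probe (circles) and of the other probes (crosses) of the 15 brightest genes outside the ribosomal protein list, with 1 symbol per probe and control array and a grey band at the lowest detected intensities, 87.9 to 104.2. The circles lie far right of the band throughout, and the crosses of LAIR1, SLC7A5P2, RRP7BP and ITIH5 lie left of the band.

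The genes that varied most between the 4 control arrays were all set by replicate 4. The 12 largest spreads lay between 0.90 and 1.08 log2 units, and replicate 4 was the lowest array in each. PHIP, a bromodomain protein, read 780.2, 598.5, 896.8 and 208.7. SMC4, a condensin subunit, read 1153, 869.5, 1262 and 353.4, and SMC3, a cohesin subunit, read 635.1, 483.4, 695.9 and 202.9. The others were SMC2, SKIC3, PHF3, CEBPZ, KTN1, TMTC3, RB1CC1, PCM1 and AHCTF1.

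Over all detected genes 985 (11.6%) lay over 0.5 log2 units lower on replicate 4 and 455 (5.34%) that much higher. Among the 26 detected sympathoadrenal regulators and the 11 detected catecholamine genes, 0 were that much lower. This was not particular to them, since it was also 0 of 64 respiratory complex, 29 sterol and fatty acid and 20 glycolysis genes. The count was 1 of 15 for granins and neuropeptides, 2 of 18 for the release machinery, 2 of 13 for pluripotency and neuroblastoma-linked genes and 1 of 4 for other transmitters. Without replicate 4, the sympathoadrenal list had 27 detected genes in place of 26, the catecholamine list 11 as before and the G2/M list 42 in place of 41.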

How the data were processed

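Total RNA was taken with Trizol, labelled with biotin and hybridised to 1-colour Illumina bead arrays, per the labels. The authors deposited 1 intensity per probe and array, on a linear scale with no normalization between arrays as the values show, and the submitters' processing notes name GenomeStudio. Each deposited intensity has a detection p-value in the column after it, per the file headers. A further deposited table held log2 values of the same arrays, by an unstated transform, and these served only as an alternative. Chip positions are unstated too, and no chip batch was analysed here.

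In GEO's platform annotation 30113 of 47321 probes had 1 gene symbol, 8 had more than 1, and 17200 had no name. Of these symbols 30074 were checked by gene identifier, and 0 changed. The 32 lists held 1117 genes, of which 1034 had a named probe, and the others were not analysed here. Detection and percentiles came from the deposited values. The spread came from log2 values after normexp by detection p with an offset of 16 and quantile normalization over all 12 arrays (limma 3.58.1, R 4.3.3). Summaries used Python 3.11.15, pandas 2.3.3 and numpy 2.4.6. Only the detection calls and percentiles were run on simulated data. Present probes there lay far above background, so that run does not cover genes near the limit. The design has 1 group, so no test was made, and 4 arrays limit the precision. No 2 of the 4 control arrays held identical values. No array was left out or imputed.

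Named genes were the 5 markers, the key members of the lists, up to 4 detected members per list with the highest median percentile, the 15 brightest genes outside the ribosomal protein list, the 12 detected genes with the largest spread, and members whose probes disagreed. The members and lists were chosen with earlier results of these data known. Alternatives were other detection thresholds, detection on at least 3 arrays, the brightest probe only, other scales and normalizations, and leaving out each array in turn. Upstream sequences came from RefSeq (GRCh38.p14). A comparison of promoter features between detected and absent genes was void, since 68.2% of absent genes matched a RefSeq promoter.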

Additional observations from a re-analysis of the deposited data

Results flagged for a closer look

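Of 183 named detected genes, 21 had an array whose gap to the nearest other array, as a share of the range over the 4 control arrays, exceeded Dixon's critical value. Of the 183 genes, 12 were named only for having the largest spread over the same arrays. Of the 12, 6 were among the 21, so the count is partly set by that choice. Without the 12, 15 of 171 genes remained, 8 of them low on replicate 4. Chance flags about 5% of such groups of 4. Over all detected genes 915 (10.7%) passed the same bound. Values are normalized log2 intensities unless stated otherwise, with the flagged array first and the range of the other 3 after it.

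Replicate 4 was the low array for 14 of the 21 genes, and 6 of these, SMC2, PCM1, AHCTF1, SKIC3, CEBPZ and TMTC3, are the ones named for their spread. TOP2A, the mitotic topoisomerase, lay at 9.0 against 10.49 to 10.71. SMC2, a condensin subunit, lay at 6.23 against 7.98 to 8.22. PCM1, a centriolar satellite protein, lay at 7.45 against 9.15 to 9.41. AHCTF1, a nuclear pore protein, lay at 6.87 against 8.60 to 8.76. SKIC3, a cofactor of the RNA exosome, lay at 7.05 against 8.98 to 9.29. CEBPZ lay at 8.66 against 10.35 to 10.66. TMTC3, an enzyme of protein mannosylation, lay at 6.66 against 8.47 to 8.56.

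A further 7 genes were low on replicate 4. SYT1, the calcium sensor of fast release, lay at 6.22 against 7.23 to 7.36. SYT4, the synaptotagmin of dense-core granules, lay at 12.18 against 12.88 to 13.02. VIP, the peptide, lay at 8.58 against 9.32 to 9.37. LUM, the proteoglycan lumican, lay at 8.60 against 9.46 to 9.61. PTPN11, the phosphatase, lay at 9.31 against 10.04 to 10.14. MEIS2, the homeodomain cofactor, lay at 10.96 against 11.38 to 11.40. MSH3, a mismatch repair gene, lay at 13.78 against 13.84 to 13.85, the narrowest gap of the 14.

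Replicate 4 was the high array for 3 genes. ALK lay at 8.86 against 8.15 to 8.24, GAP43 at 8.01 against 7.51 to 7.59 and MCM2 at 8.97 against 8.59 to 8.65.

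The remaining 4 genes were set apart by other arrays. CS lay high on replicate 1, at 11.56 against 11.37 to 11.40. EEF1A1 lay low on replicate 1 on the probe that stands for it, at 14.21 against 14.33 on the others. Further EEF1A1 probes of like brightness were highest on replicate 1. Their deposited intensities there were 22883 against 18159 to 19725, and 20411 against 17721 to 19511. The flag therefore belongs to that probe and not to the gene. HAND1 lay low on replicate 2, at 10.50 against 10.63 to 10.65, and SNAI2 high on replicate 3, at 7.59 against 7.44.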

How the results depend on the processing

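The count of detected genes was 10050 at a detection p under 0.05, 7205 under 0.001, 9173 on at least 3 arrays and 8510 from the brightest probe alone, and 8526 to 8999 when 1 array was left out, all within 1.5 times of 8513. The mixed count was 899 when 3 arrays sufficed, and 1004 to 1416 when 1 array was left out, against 1559, with 1004 without replicate 4. The median spread of 0.16 log2 units was 0.0975 without replicate 4 and up to 0.1757 without another array. Of 256 recounts of the lists, 246 stayed within 1.5 times and 10 did not, all at other detection thresholds. At 0.05 the detected genes numbered 22 for G protein-coupled receptors, 12 for ligand-gated channels, 4 for sodium channels, 4 for leukocyte markers and 1 each for glial, endothelial and melanocyte or adrenal cortex markers. At 0.001 they numbered 7 for growth factor receptors, 1 for other transmitters and 0 for epithelial markers. The percentiles of 183 named genes moved by at most 1.2 points when 1 array was left out. Leaving out 1 of 4 values cannot move their median past their SD, so that bound decides nothing there. Past their SD, 138 moved when taken over 1 probe per gene (up to 15 points). Reading a gene by the median over its probes moved 89 (up to 69.4 points). The comparison of promoter features and its alternatives were not run. Genes near the detection limit had too little signal over background to be ordered. No paired analysis was possible because the result comes from no test and the arrays form 1 group.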

Other observations

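The detected share of genes differed by chromosome, from 34.4% of 858 genes on chromosome X to 51.7% of 805 genes on chromosome 16, against 42.5% of all genes. Genes of chromosome Y and genes without a known chromosome were left out of this comparison. The median percentile of detected genes ranged from 85.3 on chromosome 22 to 89.8 on chromosome 7. These are descriptions with no test, since genes of a chromosome are not replicates.

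Of the probes with no gene name, or with several, 2375 (13.8%) were detected on all 4 arrays, against 35.5% of the probes with 1 name.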
